A study of Homo sapiens with 13 samples.

Results

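The comparison set 3 flasks of HepG2S1 cells withdrawn from sorafenib against 4 flasks of HepG2S1 cells that stayed in the drug, 7 of the 13 arrays of the series. The members were chosen by their labelled exposure alone, and all 18377 genes with a row of their own were tested. HepG2 is a human line derived from a hepatoblastoma, a liver tumour, and HepG2S1 is labelled as its sorafenib-resistant derivative. That HepG2S1 descends from HepG2 rests on the labels and was not tested. Per the labels, HepG2S1 was raised over several months by stepwise dose increases of 0.25 µM and was then kept in the drug, so that every HepG2S1 flask came from cells with long exposure. The withdrawn flasks were grown for 72 h without sorafenib at 20% O2. The sorafenib flasks were grown for 72 h with 6 µM sorafenib at 20% O2. Values are also given for 3 flasks of HepG2S1 with 6 µM sorafenib at 2% O2 and for 3 flasks of HepG2 without the drug at 20% O2, both harvested at 72 h. CO2 was 5% in all of them. The medium held serum, insulin and dexamethasone throughout. The drug was dissolved in DMSO, and whether the withdrawn flasks received DMSO is not stated, so that loss of the drug and loss of its solvent cannot be told apart. Whether the line is a single clone is not stated. The series title names rebound growth as a risk, and the comparison asks which transcripts moved within 72 h when the drug was removed.

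Sorafenib blocks several protein kinases, receptor tyrosine kinases among them, and it also disturbs mitochondria in cultured cells. When amino acids run short, or mitochondria or the endoplasmic reticulum are stressed, kinases of the integrated stress response phosphorylate the translation factor eIF2 alpha. Translation of the transcription factor ATF4 then rises, and ATF4 drives genes for amino acid synthesis, amino acid import and tRNA charging. Hypoxia-inducible factor (HIF) is a separate system: its alpha subunit is degraded when oxygen is plentiful, and growth factor signalling can raise its synthesis.

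Each array gave a log2 value per gene, so that 1 unit is a 2-fold difference. Array medians lay between 7.30 and 7.42 on the log2 scale. Pairs of sorafenib arrays correlated at 0.995 to 0.998 across rows and pairs of withdrawn arrays at 0.997 to 0.998, while withdrawn and sorafenib arrays correlated at 0.993 to 0.996. HepG2 arrays correlated with withdrawn arrays at 0.917 to 0.922 and with sorafenib arrays at 0.917 to 0.923. Replicate 2 of the sorafenib group had the lowest quality weight of the 10 HepG2S1 arrays, 0.52. The labels do not say that the flasks were separate cultures, and the p-values here speak only of how much flasks of a group varied, which may be technical. The number of arrays limits the precision. In bulk RNA, fewer cells of a kind and less RNA per cell cannot be told apart.

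Of the hepatocyte markers, the secreted proteins were far lower than in HepG2 in both groups: the summed intensity of 20 of them was 1722 to 1738 in withdrawn, 1664 to 1714 in sorafenib and 138470 to 141970 in HepG2 flasks. The sum over 16 hepatocyte transcription factors and enzymes differed less, at 10316 to 10609, 10127 to 10250 and 12773 to 14102. ALB, the main plasma protein of hepatocytes, read 5.07 to 5.13 in the withdrawn flasks and 5.13 to 5.25 in the sorafenib flasks, against a mean of 12.79 in HepG2. AFP, the fetal serum protein, read 4.53 to 4.80 and 4.69 to 4.85, against 13.45 in HepG2. Both genes lay below 5.76, the lower quartile of an array, and neither passed the test between withdrawn and sorafenib flasks (ALB -0.09 ± 0.06, AFP -0.14 ± 0.08, log2 difference ± SE). CDH1, the epithelial cadherin, differed by 0.07 with a 95% interval from -0.10 to 0.23, and VIM, the intermediate filament of mesenchymal cells, by -0.01 with an interval from -0.13 to 0.10. The epithelial keratins KRT8 and KRT18 were abundant, with withdrawn means of 12.70 and 11.97.

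In limma, with Benjamini-Hochberg adjustment over 18377 genes and a threshold of 0.05, 1852 genes (10.1%) were higher and 1451 (7.90%) lower after withdrawal, 18.0% in all. Most differences were small: 2873 of the called genes differed by less than 0.5 on the log2 scale, 402 by 0.5 to 1 and 28 by 1 or more, and the median size was 0.30. The 28 genes past 2-fold were 20 higher (0.109% of genes tested) and 8 lower (0.0435%). Over all genes the median log2 difference was -0.02, and in 30.2% of genes the withdrawn and sorafenib arrays did not overlap. With each array scaled to its 75th percentile the split was 1542 higher and 1757 lower. These shares are the background for every gene group described here.

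**Figure D1:**
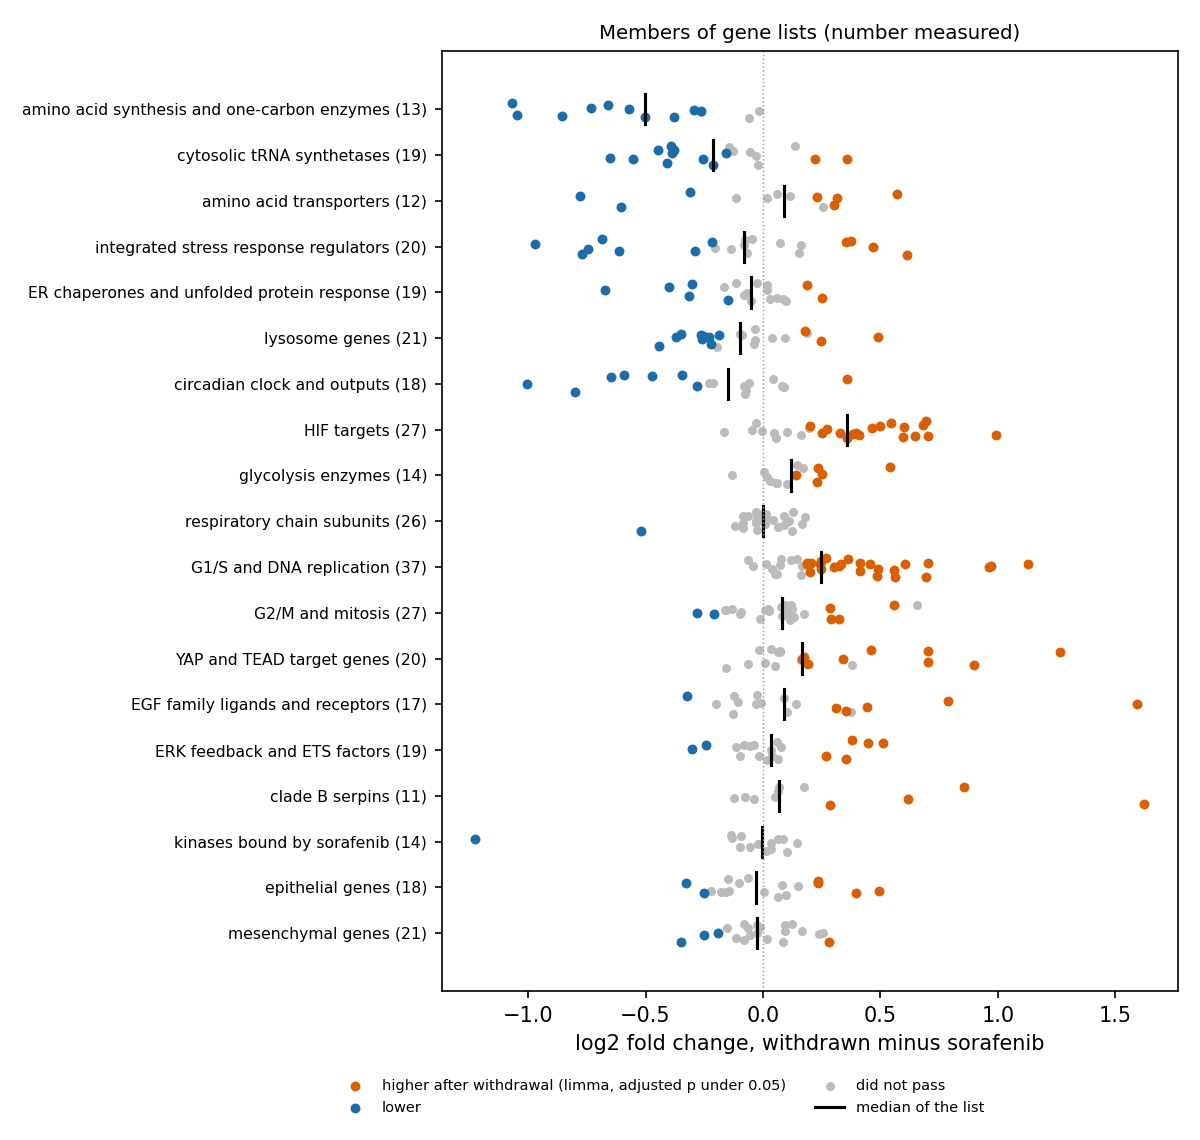
Log2 fold change (withdrawn minus sorafenib) of every measured member of 19 gene lists, each point a gene, orange where higher and blue where lower by limma at adjusted p under 0.05, grey where it did not pass, with a tick at the list's median. Amino acid enzymes (10 of 13 lower, median -0.50) lie to the left of 0, and HIF targets (18 of 27 higher, median 0.36) and G1/S genes (25 of 37 higher, median 0.25) to the right.

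Enzymes that make amino acids and supply folate-bound carbon units were lower after withdrawal. Of 13 measured, 10 fell and none rose, with a median log2 difference of -0.50 against -0.02 over all genes. ASNS, asparagine synthetase, read 9.59, 9.68 and 9.72 in the withdrawn flasks and 10.66, 10.73, 10.74 and 10.79 in the sorafenib flasks. Every withdrawn value lay below every sorafenib value, and the difference was -1.07 ± 0.07 (SE; limma, adjusted p = 4.54e-07). ALDH1L2, a mitochondrial folate enzyme, read 6.93, 7.11 and 7.14 without the drug and 7.92, 8.06, 8.18 and 8.27 with it, and fell by 1.05 ± 0.09 (limma, adjusted p = 3.14e-06). PCK2, the mitochondrial enzyme that makes phosphoenolpyruvate, read 8.74, 8.87 and 8.93 against 9.65, 9.66, 9.69 and 9.81. Neither of these pairs of groups overlapped, and PCK2 fell by 0.86 ± 0.07.

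The serine pathway moved in the same direction, but not at every step. PHGDH, its entry enzyme, read 11.13, 11.22 and 11.29 without the drug and 11.83, 11.83, 11.92 and 11.92 with it, a fall of 0.66 ± 0.06 (limma, adjusted p = 6.35e-06). PSAT1, the next enzyme, read 11.12, 11.18 and 11.24 against 11.60, 11.69, 11.70 and 11.73 and fell by 0.50 ± 0.05. PSPH, the last enzyme, overlapped between groups and did not pass, with -0.26 and a 95% interval from -0.49 to -0.03. SHMT2, which moves a carbon unit from serine to folate, fell by 0.26 ± 0.05, and MTHFD2, the next mitochondrial folate enzyme, by 0.30 ± 0.05. CTH, which makes cysteine from cystathionine, fell by 0.73 ± 0.06. PYCR1, which completes proline synthesis, fell by 0.57 ± 0.07, with sorafenib replicate 2 at 11.14 and the other sorafenib arrays at 10.83 to 10.88. GOT1, the cytosolic aspartate transaminase, fell by 0.38 ± 0.05. ALDH18A1, the first enzyme of proline synthesis, and MTHFD1L, a mitochondrial formate enzyme, differed by -0.06 and -0.02 and did not pass.

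Charging enzymes for tRNA followed for most but not all amino acids. Of 19 cytosolic tRNA synthetases measured, 11 fell and 2 rose, with a median of -0.21. WARS1, for tryptophan, read 10.79, 10.79 and 10.85 without the drug and 11.38, 11.44, 11.50 and 11.51 with it, and fell by 0.65 ± 0.06 (limma, adjusted p = 5.86e-06). MARS1, for methionine, fell by 0.55 ± 0.05, SARS1, for serine, by 0.45 ± 0.06, and AARS1, for alanine, by 0.39 ± 0.05. HARS1, for histidine, went the other way: it read 11.21, 11.21 and 11.23 against 10.81, 10.87, 10.87 and 10.89, a rise of 0.36 ± 0.05 (limma, adjusted p = 0.000143). FARSA, a subunit of the phenylalanine enzyme, rose by 0.22 ± 0.06, a call lost without withdrawn replicate 1 or 2. The call of QARS1, for glutamine, a fall of 0.16 ± 0.05, was lost without any single array of the 2 groups.

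**Figure D2:**
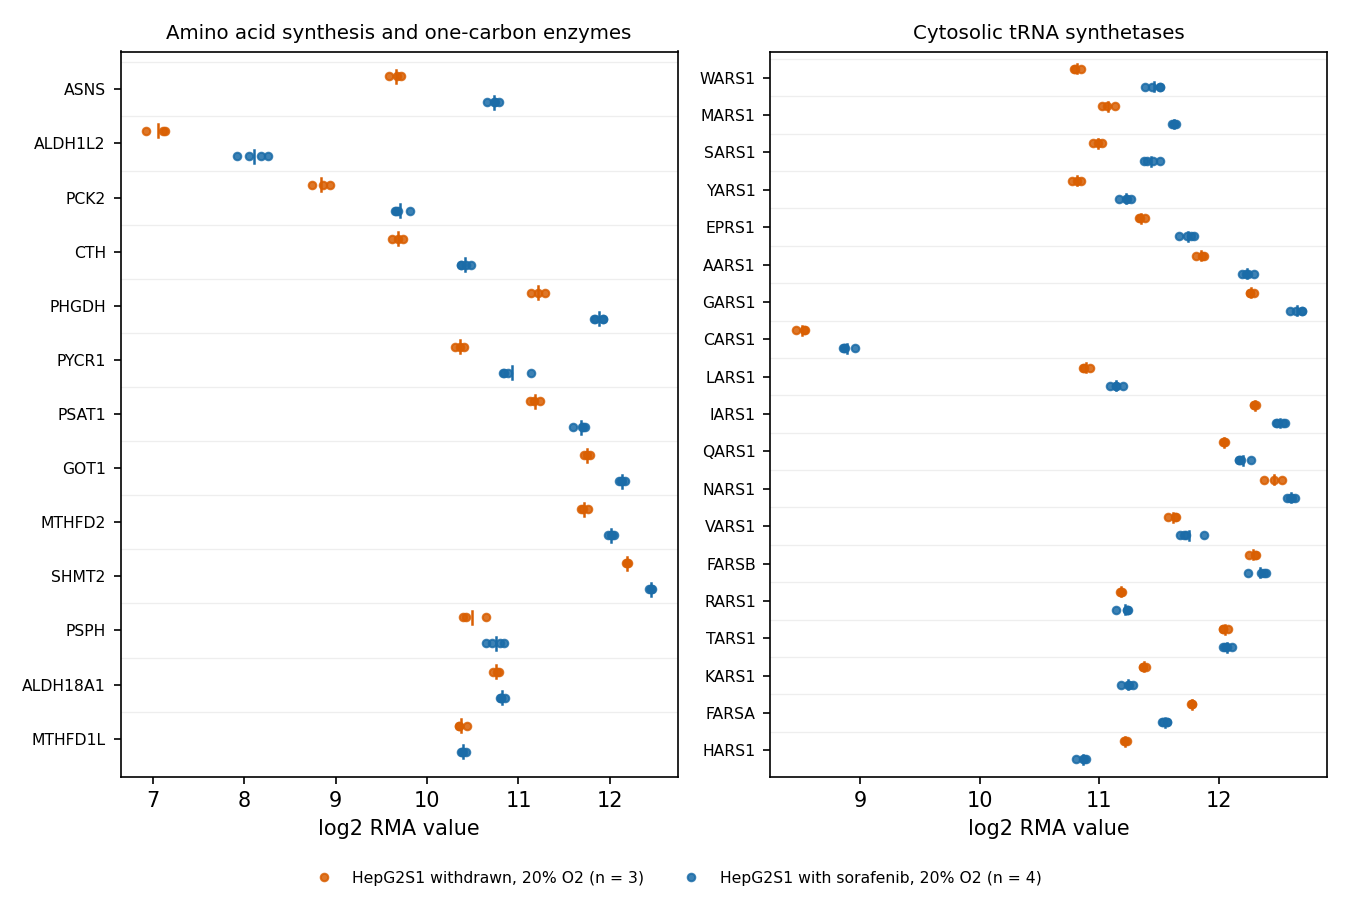
Log2 values per array (points) and group means (ticks) for the 13 amino acid and folate enzymes and the 19 cytosolic tRNA synthetases measured, in withdrawn (n = 3, orange) and sorafenib (n = 4, blue) flasks. Withdrawn values lie left of sorafenib values for ASNS (9.59 to 9.72 against 10.66 to 10.79) and most enzymes, while HARS1 (11.21 to 11.23 against 10.81 to 10.89) lies to the right.

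Amino acid transporters split. Of 12 measured, 4 rose and 3 fell, with a median of 0.09. SLC43A1, a carrier of large neutral amino acids, read 8.03, 8.08 and 8.37 without the drug and 8.90, 8.91, 8.94 and 9.00 with it, and fell by 0.78 ± 0.08. SLC6A9, the glycine transporter, fell by 0.60 ± 0.07, and SLC1A5, which imports glutamine, by 0.31 ± 0.06. SLC7A6, which exchanges cationic for neutral amino acids, read 10.69, 10.71 and 10.72 against 10.05, 10.09, 10.15 and 10.25 and rose by 0.57 ± 0.06 (limma, adjusted p = 1.30e-05). SLC38A2, a glutamine and alanine importer, rose by 0.30 ± 0.06 and SLC7A5, the main leucine carrier, by 0.23 ± 0.05. SLC7A11, the cystine importer, rose by 0.31 ± 0.10, a call lost without withdrawn replicate 1 or 2 or sorafenib replicate 2 or 4.

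Regulators of the integrated stress response moved both ways. Of 20 measured, 7 fell and 4 rose, with a median of -0.08. ATF4 itself read 10.41, 10.50 and 10.66 without the drug and 11.04, 11.13, 11.31 and 11.36 with it, and fell by 0.69 ± 0.09 (limma, adjusted p = 9.74e-05). NUPR1, a small stress-induced chromatin protein, read 10.49, 10.55 and 10.65 against 11.50, 11.50, 11.53 and 11.60 and fell by 0.97 ± 0.07. DDIT3, which encodes CHOP, read 9.79, 9.84 and 9.89 against 10.46, 10.60, 10.64 and 10.75 and fell by 0.77 ± 0.07. None of these 3 overlapped between groups. KLHL24 fell by 0.75 ± 0.07, GDF15, a secreted stress cytokine, by 0.61 ± 0.09, and EIF4EBP1, a repressor of translation initiation, by 0.29 ± 0.06. TRIB3, which restrains ATF4, fell by 0.22 ± 0.06, a call lost without any withdrawn replicate or without sorafenib replicate 2 or 3.

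Other genes that ATF4 is known to drive rose. ATF5, a related transcription factor, read 8.15, 8.17 and 8.25 without the drug and 7.42, 7.59, 7.63 and 7.67 with it, a rise of 0.61 ± 0.07 (limma, adjusted p = 3.90e-05). CHAC1, which degrades glutathione, read 9.56, 9.60 and 9.63 against 9.02, 9.10, 9.13 and 9.26 and rose by 0.47 ± 0.11. ATF3, a stress-induced repressor, rose by 0.38 ± 0.07 and STC2, a secreted glycoprotein, by 0.35 ± 0.06. CEBPB, PPP1R15A, SESN2 and DDIT4 did not pass, with differences of -0.08, -0.07, 0.16 and 0.07.

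Promoters of members on both sides held the letters of the element that ATF4 binds together with CEBP proteins. The search used TGATGNAA on both strands in the 250 bases before the RefSeq start (GRCh38.p14), the reverse complement being TTNCATCA, and these letters overlap no other motif searched. It matched 2 of 7 promoters given for the amino acid enzymes that fell and 1 of 2 for those that did not pass. For the tRNA synthetases it matched 2 of 9 that fell, none of 2 that rose and none of 5 that did not pass. For the regulators it matched none of 5 that fell, 2 of 4 that rose and 1 of 9 that did not pass. It matched none of the promoters given for the transporters, 3 that fell, 3 that rose and 5 that did not pass. The shares elsewhere were 3.19% of all promoters and 2.20% of those of genes tested. Windows are shown on the gene's strand, 5′ to 3′, with the matched letters in capitals, for members that fell and members that rose. ASNS lies on the minus strand at chr7:97872455-97872490, GOT1 on the minus strand at chr10:99430801-99430836 and AARS1 on the minus strand at chr16:70289672-70289707. CHAC1 lies on the plus strand at chr15:40953248-40953283 and ATF3 on the plus strand at chr1:212565202-212565237.
ASNS: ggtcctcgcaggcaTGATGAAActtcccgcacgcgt
GOT1: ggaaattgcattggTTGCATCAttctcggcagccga
AARS1: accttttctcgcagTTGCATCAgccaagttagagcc
CHAC1: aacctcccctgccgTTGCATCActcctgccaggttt
ATF3: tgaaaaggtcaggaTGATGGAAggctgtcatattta
GOT1, which fell, and CHAC1, which rose, carried the same 8 letters. A match is a description of the sequence and does not show that a factor binds there.

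The stress-response genes were also set against HepG2S1 kept in the drug at 2% O2, a group that has its own arrays. Here and in later comparisons with 2% O2, the withdrawn arrays were those already compared with the sorafenib flasks. The 2 contrasts are therefore not independent. Over all genes, 1420 (7.73%) were higher and 1992 (10.8%) lower after withdrawal than at 2% O2 with the drug, 18.6% in all, and with 75th percentile scaling 1802 were higher and 1689 lower. Of the 13 amino acid enzymes, 10 were lower than at 2% O2 with the drug and none higher, and of the 20 regulators 11 were lower and 2 higher. The 19 tRNA synthetases split into 6 lower and 3 higher, and the 12 transporters into 1 lower and 3 higher. ASNS differed by -0.78 ± 0.07 (limma, adjusted p = 5.79e-06), ALDH1L2 by -1.09 ± 0.09, and DDIT3 by -1.01 ± 0.07. GOT1 did not pass, with 0.01 ± 0.06.

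Most genes of the unfolded protein response of the endoplasmic reticulum did not pass. Of 19 measured, 5 fell and 2 rose, with a median of -0.05. The count higher was 1 without withdrawn replicate 2, and the count lower was 4 whichever single array of the 2 groups was left out. HSPA5, the central chaperone, differed by -0.08 and XBP1, the factor spliced by IRE1, by -0.07, and neither passed. DNAJB9, a target of that factor, read 8.18, 8.21 and 8.31 without the drug and 8.83, 8.84, 8.96 and 8.99 with it, and fell by 0.67 ± 0.07 (limma, adjusted p = 1.78e-05). HERPUD1 and SEL1L, both of the degradation machinery of that compartment, fell by 0.40 ± 0.05 and 0.31 ± 0.06.

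Several lysosomal hydrolases were lower, and so was a single autophagy gene past 2-fold. Of 21 lysosome genes, 9 fell and 3 rose, with a median of -0.10. With any single array left out, 7 to 8 were lower and 2 to 4 higher. NPC2, a cholesterol carrier of the lysosome, read 11.73, 11.74 and 11.80 without the drug and 12.17, 12.19, 12.20 and 12.23 with it, and fell by 0.44 ± 0.05. The cathepsins CTSB, CTSD and CTSL fell by 0.37 ± 0.06, 0.35 ± 0.05 and 0.27 ± 0.05. MITF, a transcription factor that can drive lysosomal genes, rose by 0.49 ± 0.06, while TFEB, its relative, differed by -0.04 and did not pass. WIPI1, which binds phosphoinositide on forming autophagosomes, read 10.09, 10.11 and 10.27 without the drug and 11.17, 11.21, 11.25 and 11.37 with it. It fell by 1.10 ± 0.06 (limma, adjusted p = 2.39e-07), and of 28 autophagy genes 3 fell and 2 rose in all. The count lower was 1 without withdrawn replicate 3, and the count higher was 1 without any withdrawn replicate or without sorafenib replicate 2 or 4.

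Ligands of the EGF receptor were among the genes with the largest rises. Of 17 genes of this family, 5 rose and 1 fell, with a median of 0.09. EPGN, which encodes the ligand epigen, read 8.64, 8.83 and 8.96 without the drug and 7.15, 7.20, 7.21 and 7.31 with it, a rise of 1.59 ± 0.10 (limma, adjusted p = 4.54e-07). EREG, which encodes epiregulin, read 10.47, 10.50 and 10.54 against 9.61, 9.67, 9.74 and 9.86 and rose by 0.79 ± 0.08. Neither overlapped, and both were also higher than at 2% O2 with the drug, EPGN by 1.95 ± 0.11 and EREG by 1.08 ± 0.09. EGFR, the receptor, rose by 0.35 ± 0.05 and ERRFI1, its inhibitor, by 0.31 ± 0.05, and both were lower than at 2% O2 with the drug, by -0.36 ± 0.06 and -0.42 ± 0.05. The rise of NRG4 was lost without any withdrawn replicate or without sorafenib replicate 2, 3 or 4. HBEGF and TGFA differed by 0.38 ± 0.19 and 0.14 ± 0.06 and did not pass, and ERBB3 fell by 0.32 ± 0.07.

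Genes induced by ERK, a kinase of growth factor signalling, moved both ways or did not pass. Of 19 feedback genes and ETS factors, 5 rose and 2 fell, with a median of 0.04. DUSP6, the cytosolic ERK phosphatase, differed by 0.06 and SPRY2 by 0.04, and neither passed. EPHA2 rose by 0.51 ± 0.08, DUSP4, a nuclear ERK phosphatase, by 0.45 ± 0.09, SPRED1 by 0.38 ± 0.07 and SPRY4 by 0.35 ± 0.08. The ETS factors ETV5 and ETV4 fell by 0.30 ± 0.06 and 0.24 ± 0.07, the ETV4 call being lost without withdrawn replicate 2 or 3. Of 22 immediate early genes, 7 rose and 3 fell, with 4 higher without withdrawn replicate 1. EGR1 read 9.35, 9.47 and 9.52 without the drug and 8.55, 8.59, 8.62 and 8.74 with it, against a HepG2 mean of 12.07, and rose by 0.82 ± 0.08 (limma, adjusted p = 6.58e-06). IER3 rose by 0.68 ± 0.08 and NR4A3 by 0.43 ± 0.08, while ZFP36 fell by 0.58 ± 0.09, FOSB by 0.40 ± 0.08 and NR4A2 by 0.39 ± 0.08. FOS and JUN did not pass, with -0.08 and -0.14.

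Among 14 kinases that sorafenib binds, DDR2 was the only member called. DDR2, a receptor for fibrillar collagen, read 7.91, 8.02 and 8.18 without the drug and 9.11, 9.21, 9.33 and 9.39 with it, and fell by 1.22 ± 0.09 (limma, adjusted p = 1.35e-06). Its other row on the array fell too, by 1.51, and its level stayed above the HepG2 mean of 6.41. The remaining 13 kinases differed by -0.14 to 0.14, KIT, PDGFRB, FLT3, KDR and DDR1 among them.

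The insulin-like growth factor axis held 2 of the 28 genes past 2-fold, in opposite directions, among 14 members of which 3 rose and 2 fell, or 1 fell without withdrawn replicate 1 or 2. IGFBP3, the main binding protein of these factors, read 10.11, 10.19 and 10.28 without the drug and 8.80, 8.86, 8.87 and 8.93 with it, a rise of 1.33 ± 0.11 (limma, adjusted p = 2.61e-06). PAPPA2, a protease that cleaves binding proteins, read 6.75, 6.83 and 6.94 against 8.19, 8.26, 8.28 and 8.29 and fell by 1.42 ± 0.12 (limma, adjusted p = 2.74e-06). Neither gene overlapped between groups. At 2% O2 with the drug, IGFBP3 was higher still, at 11.71 ± 0.27 (SD, n = 3), and the withdrawn flasks lay 1.52 below it, whereas PAPPA2 was at 8.25 ± 0.14, beside a mean of 8.26 in the drug at 20% O2. IRS1, an adaptor of the receptors, rose by 0.33 ± 0.08.

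Targets of YAP and TEAD, the transcription factors that respond to cell shape and contact, were among the genes that rose. Of 20 measured genes 9 rose and none fell, with a median of 0.16 and with 6 higher without withdrawn replicate 1. THBS1, thrombospondin, read 11.62, 11.63 and 11.64 without the drug and 10.23, 10.34, 10.37 and 10.51 with it, a rise of 1.27 ± 0.08 (limma, adjusted p = 4.54e-07). The withdrawn values lay beside the HepG2 mean of 11.57. F3, tissue factor, read 9.39, 9.42 and 9.55 against 8.37, 8.49, 8.66 and 8.70 and rose by 0.90 ± 0.08. CCN1 and AJUBA each rose by 0.70, with SEs of 0.08 and 0.07. CCN2, a widely used target of these factors, differed by 0.03 with a 95% interval from -0.19 to 0.26 and did not pass. YAP1 differed by -0.02 and WWTR1, which encodes TAZ, by 0.07, neither passing, while TEAD4 rose by 0.34 ± 0.06.

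Genes of entry into and passage through DNA replication rose together. Of 37 measured, 25 rose and none fell, with a median of 0.25 and with 20 to 24 higher when any single array was left out. CCNE2, a cyclin that drives entry into S phase, read 10.86, 10.87 and 10.95 without the drug and 9.67, 9.86, 10.06 and 10.09 with it, and rose by 0.97 ± 0.11 (limma, adjusted p = 3.00e-05). CCNE1, its partner gene, read 9.24, 9.25 and 9.33 against 8.46, 8.53, 8.54 and 8.74 and rose by 0.70 ± 0.07. RRM2, the limiting subunit of ribonucleotide reductase, read 10.11, 10.20 and 10.20 against 9.04, 9.20, 9.29 and 9.29 and rose by 0.96 ± 0.07. None of these overlapped between groups.

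FAM111B, a protease of the nucleus, read 9.91, 10.12 and 10.13 against 8.60, 8.78, 9.08 and 9.24 and rose by 1.13 ± 0.15 (limma, adjusted p = 0.000142). CDC25A, a phosphatase that activates cyclin-dependent kinases, rose by 0.60 ± 0.06, GINS3, of the replicative helicase, by 0.56 ± 0.06, MCM10 by 0.48 ± 0.07 and CDC6, which licenses origins, by 0.41 ± 0.05. UHRF1, which recognises newly copied DNA, rose by 0.69 ± 0.08 in the row used, and its other row differed by -0.06. MCM2, MCM3, MCM5, MCM6 and MCM7, subunits of the helicase ring, did not pass, with differences of 0.05 to 0.16, while MCM4 rose by 0.27 ± 0.05.

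Genes of mitosis were also read. Of 27 measured, 4 rose and 2 fell, with a median of 0.08, and the count lower was 1 without any withdrawn replicate or without sorafenib replicate 2 or 4. MKI67, a proliferation marker, read 11.50, 11.55 and 11.62 without the drug and 11.23, 11.27, 11.29 and 11.29 with it, and rose by 0.29 ± 0.06 (limma, adjusted p = 0.00221). HMMR rose by 0.56 ± 0.12 and CCNB1, the mitotic cyclin, by 0.32 ± 0.06. UBE2C, which helps degrade mitotic cyclins, fell by 0.28 ± 0.06, and TOP2A, CDC20 and AURKA did not pass, with -0.16, -0.01 and 0.08. Of 14 D cyclins and inhibitors of cyclin-dependent kinases, 3 rose and 1 fell, the fall being lost without withdrawn replicate 3. CCND1 rose by 0.25 ± 0.06, and CDKN1A, the p21 inhibitor, differed by 0.00 with a 95% interval from -0.10 to 0.10.

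**Figure D3:**
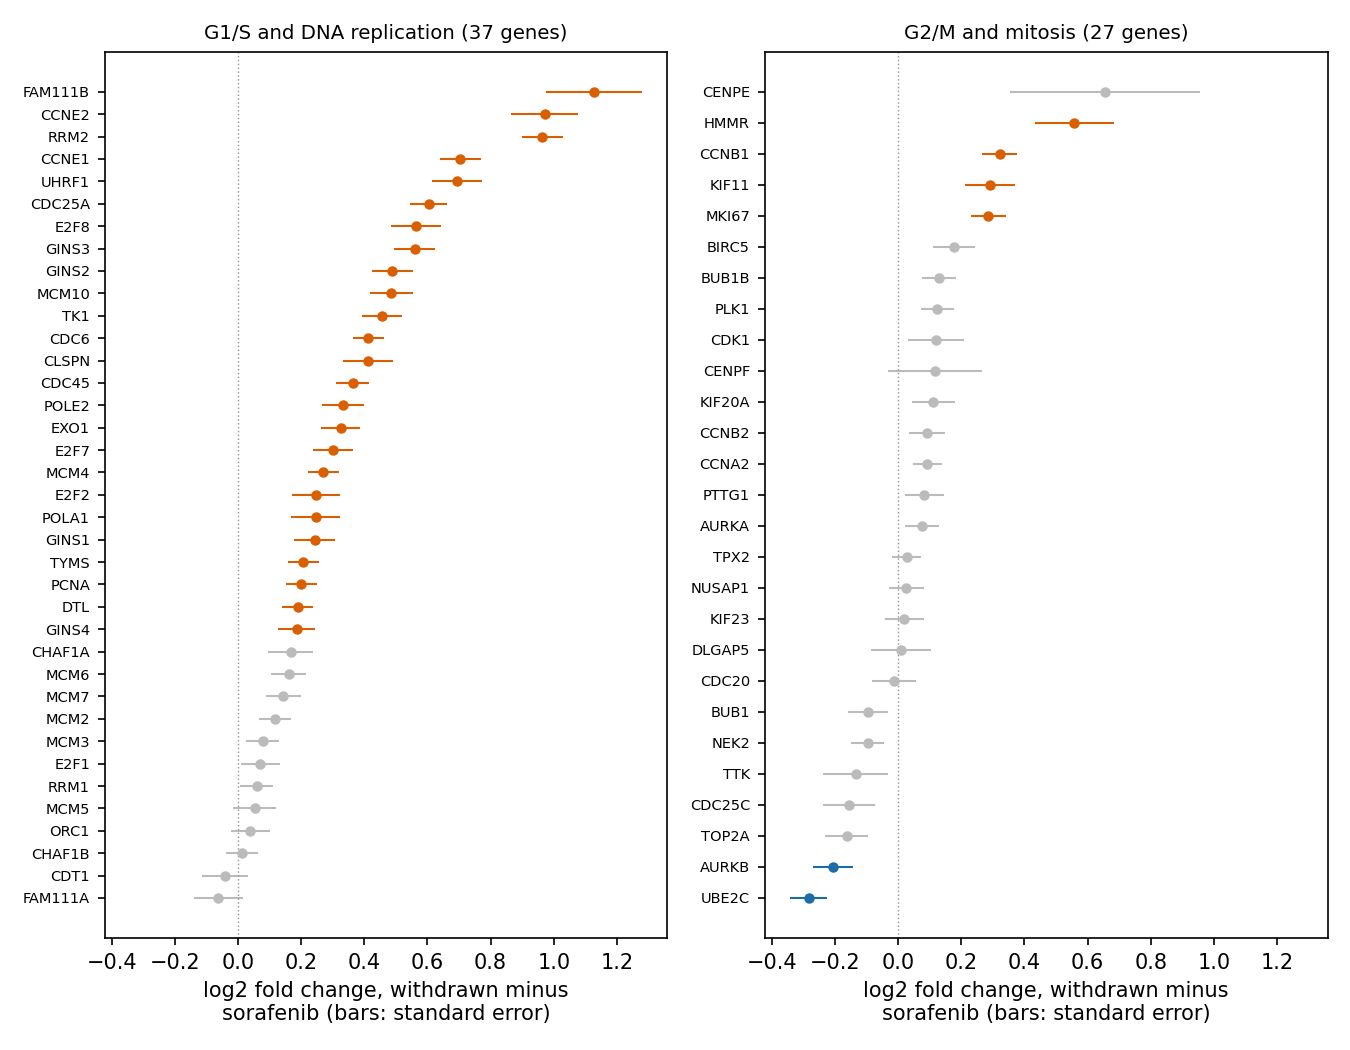
Log2 fold change (withdrawn minus sorafenib) with its standard error for the 37 G1/S and replication genes and the 27 mitosis genes measured, in orange where called higher, blue where called lower and grey where not called. Of the left panel 25 genes are called higher, up to FAM111B at 1.13, and of the right panel 4 are called higher and 2 lower.

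HIF target genes rose at 20% O2, though not all of them. Of 27 measured, 18 rose and none fell, with a median of 0.36, and 13 to 17 were called higher when any single array was left out. The count lower was 1 in the fit on the 2 compared groups, with 75th percentile scaling, a second quantile normalization or array weights. SLC2A1, the basal glucose transporter, read 11.19, 11.22 and 11.32 without the drug and 10.21, 10.22, 10.24 and 10.35 with it, and rose by 0.99 ± 0.06 (limma, adjusted p = 2.39e-07). NDRG1, a stress-responsive protein often induced by hypoxia, read 12.31, 12.33 and 12.36 against 11.58, 11.61, 11.63 and 11.70 and rose by 0.70 ± 0.05. ADM, the vessel-dilating peptide adrenomedullin, read 10.20, 10.20 and 10.34 against 9.48, 9.53, 9.62 and 9.63 and rose by 0.68 ± 0.08. None of the 3 overlapped between groups.

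Matrix enzymes and other glucose genes of the list followed. PLOD2, which hydroxylates collagen lysines, rose by 0.69 ± 0.12, with sorafenib replicate 2 at 10.86 and the other sorafenib arrays at 11.18 to 11.24. LOX, which cross-links collagen, read 12.24, 12.26 and 12.30 against 11.73, 11.76, 11.79 and 11.79 and rose by 0.50 ± 0.06. SLC2A3, a glucose transporter of high affinity, rose by 0.60 ± 0.08, PFKFB4, a regulator of glycolysis, by 0.65 ± 0.11 and HK2, hexokinase 2, by 0.36 ± 0.06. BNIP3, a mitophagy receptor, rose by 0.40 ± 0.05 and EGLN1, the main oxygen sensor, by 0.33 ± 0.06.

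A group of equally known targets did not pass. VEGFA, the vessel growth factor, read 11.28, 11.30 and 11.30 without the drug and 11.19, 11.26, 11.26 and 11.26 with it, a difference of 0.05 with a 95% interval from -0.06 to 0.15. BHLHE40, a repressor, differed by -0.05, ALDOC, an aldolase, by -0.03, INSIG2 by 0.00, MXI1 by 0.05, KDM3A, a histone demethylase, by 0.10 and P4HA2 by -0.17. HIF1A itself differed by 0.02 ± 0.07. Each of these targets was at least 0.74 higher at 2% O2 than at 20% O2 in the presence of the drug, VEGFA by 1.02 and INSIG2 by 1.27.

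Withdrawal and low oxygen are both compared here with the same 4 sorafenib arrays, so that their differences are not independent. The median over the 27 targets was 0.36 for withdrawal and 1.16 for 2% O2 with the drug. In the direct contrast, 26 of 27 targets were lower in withdrawn flasks than at 2% O2 with the drug, and the remaining gene, PFKFB3, differed by -0.16 ± 0.07 and did not pass. SLC2A1 lay 0.52 ± 0.06 below its level at 2% O2, NDRG1 0.80 ± 0.06 and VEGFA 0.97 ± 0.05. Of 14 glycolysis enzymes, 5 rose after withdrawal and none fell, 3 without withdrawn replicate 2. ENO2, the neuronal enolase, rose by 0.54 ± 0.07, PKM by 0.25 ± 0.05 and LDHA by 0.23 ± 0.05, while GAPDH, GPI and ALDOA differed by 0.05, 0.02 and 0.03 and did not pass. Of 26 respiratory chain subunits none rose and only UQCRB fell, by 0.52 ± 0.09. The count higher was 2 without sorafenib replicate 1 and 5 with array weights.

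**Figure D4:**
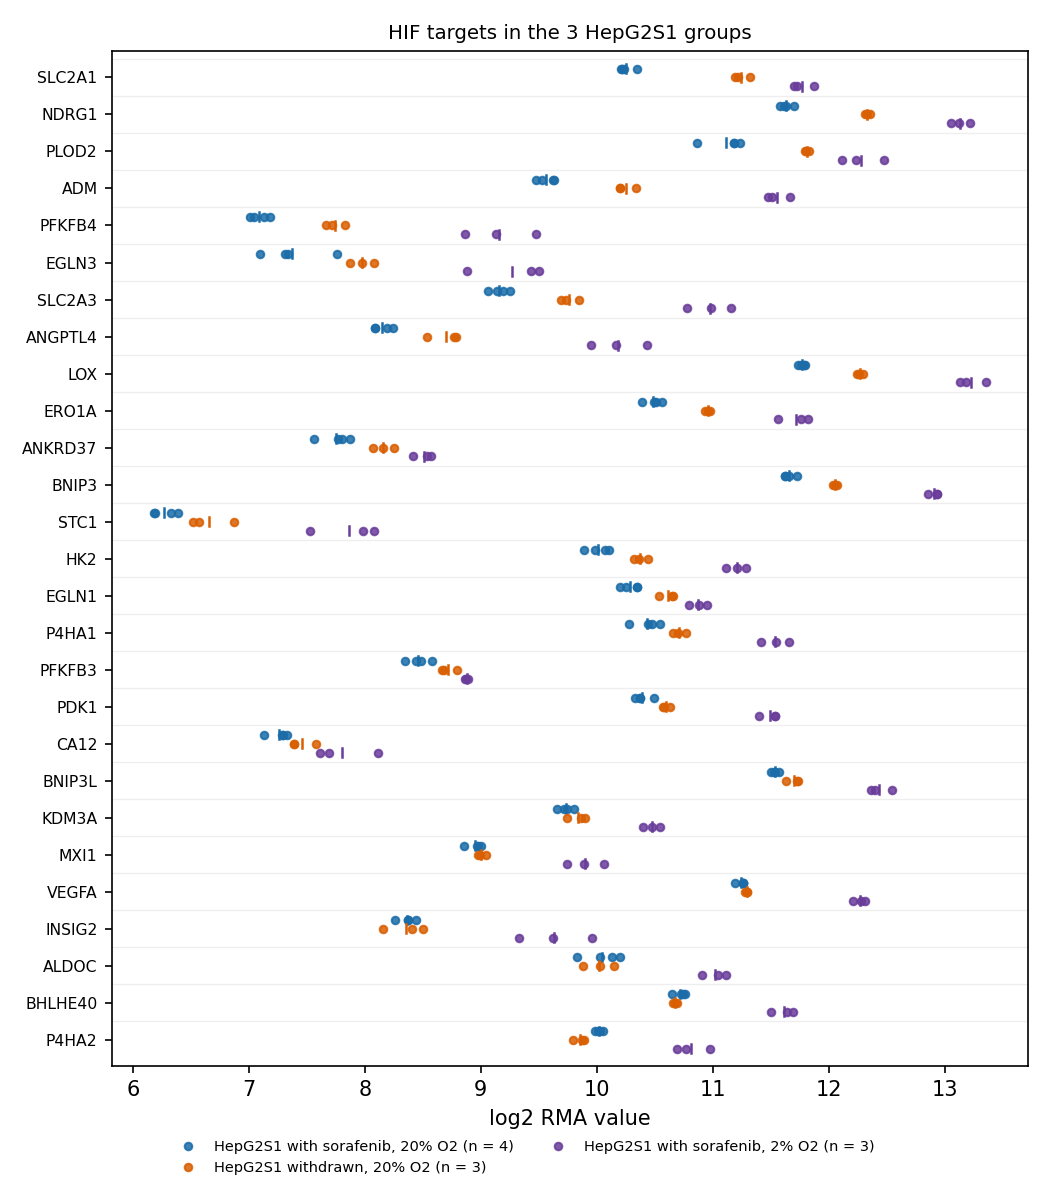
Mean log2 value of each of the 27 HIF targets (tick) and its values per array (points) in HepG2S1 flasks kept in the drug at 20% O2 (blue, n = 4), flasks without it (orange, n = 3) and flasks in the drug at 2% O2 (purple, n = 3). Withdrawn means lie between the others for SLC2A1 (10.25, 11.24 and 11.77 in that order) but beside the sorafenib mean for VEGFA (11.24, 11.29 and 12.27).

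The short core that HIF binds occurred in promoters of both kinds of target. ACGTG, searched on both strands in the same windows with CACGT as its reverse complement, matched 9 of 15 promoters given for the targets that rose and 3 of 7 for those that did not pass, against 18.7% of all promoters and 21.1% of those of genes tested. Matches on the 2 strands overlap where the letters are CACGTG. PLOD2 (minus strand, chr3:146161312-146161344) and LOX (minus strand, chr5:122078339-122078371) are shown as genes that rose, and BHLHE40 (plus strand, chr3:4979249-4979281) as a gene that did not pass, on the gene's strand with the match in capitals.
PLOD2: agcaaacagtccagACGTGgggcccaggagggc
LOX: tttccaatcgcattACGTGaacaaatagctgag
BHLHE40: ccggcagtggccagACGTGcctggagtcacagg
Each window is 1 of the matches of its promoter.

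Clade B serpins, intracellular protease inhibitors of squamous epithelium, included SERPINB3, the largest rise among the genes tested. SERPINB3 read 7.56, 7.97 and 8.26 without the drug and 6.08, 6.14, 6.41 and 6.60 with it, and rose by 1.62 ± 0.17 (limma, adjusted p = 2.41e-05). SERPINB4, a close copy whose probes may cross-hybridise with it, read 5.59, 5.72 and 6.08 against 4.62, 4.92, 4.92 and 5.30 and rose by 0.86 ± 0.16. Its sorafenib values lay below 5.76, the lower quartile of an array, and so did the withdrawn values 5.59 and 5.72. SERPINB8 rose by 0.62 ± 0.07 and SERPINB5, maspin, by 0.29 ± 0.06, and the other 7 of 11 members did not pass.

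Further genes past 2-fold had varied roles. OLR1, a scavenger receptor for oxidised lipoprotein, read 9.46, 9.57 and 9.61 without the drug and 8.01, 8.08, 8.15 and 8.23 with it, and rose by 1.43 ± 0.11. PTGS2, the inducible cyclooxygenase, read 8.56, 8.66 and 8.89 against 7.32, 7.44, 7.46 and 7.64 and rose by 1.24 ± 0.12. TIPARP, an ADP-ribosyltransferase induced by the aryl hydrocarbon receptor, read 10.50, 10.50 and 10.53 against 9.22, 9.22, 9.27 and 9.41 and rose by 1.23 ± 0.08. The withdrawn arrays lay above all sorafenib arrays in each. CYP1A1 and AHR, the classical target and the receptor of that pathway, differed by 0.05 and 0.06 and did not pass, and CYP1B1 differed by 0.27 ± 0.09 and did not pass.

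Several of these genes were also high at 2% O2 with the drug. CDC42EP3, an effector of the GTPase CDC42, had means of 9.47 in withdrawn, 8.44 in sorafenib and 9.45 in 2% O2 flasks, and the direct difference between withdrawal and 2% O2 was 0.02 ± 0.07. For PTGS2 that difference was -0.05 ± 0.13 and for SAMD9, an antiviral restriction factor, -0.15 ± 0.14, neither passing. TIPARP and NCOA5 were also higher at 2% O2 than at 20% O2 in the drug, by 0.93 ± 0.08 and 0.73 ± 0.10. Withdrawn flasks differed from 2% O2 flasks by 0.31 ± 0.09 for TIPARP, which passed, and 0.31 ± 0.11 for NCOA5, which did not. IL7R, a subunit of a lymphocyte cytokine receptor, lay 0.47 ± 0.12 below its level at 2% O2, although it rose by 1.00 ± 0.11 on withdrawal. THBS1, OLR1 and KRT10, a keratin of upper epidermis, lay above it, by 1.40 ± 0.09, 1.32 ± 0.11 and 0.93 ± 0.08.

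Past 2-fold and higher were also KRT10 (1.04 ± 0.08), the nuclear receptor coregulator NCOA5 (1.04 ± 0.10), GEN1, a resolvase of DNA junctions (1.05 ± 0.12), the tRNA methyltransferase LCMT2 (1.02 ± 0.09) and the RNA gene CPS1-IT1 (1.05 ± 0.15). Past 2-fold and lower were ARG2, the mitochondrial arginase, and CREB5, a transcription factor of the ATF family. ARG2 read 6.71, 6.93 and 7.00 without the drug and 7.84, 7.88, 7.90 and 7.99 with it, and fell by 1.02 ± 0.07 (limma, adjusted p = 4.54e-07). CREB5 read 7.07, 7.21 and 7.26 against 8.17, 8.19, 8.20 and 8.23 and fell by 1.02 ± 0.06. All 28 genes past 2-fold kept their call without each single array of the 2 groups.

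**Figure D5:**
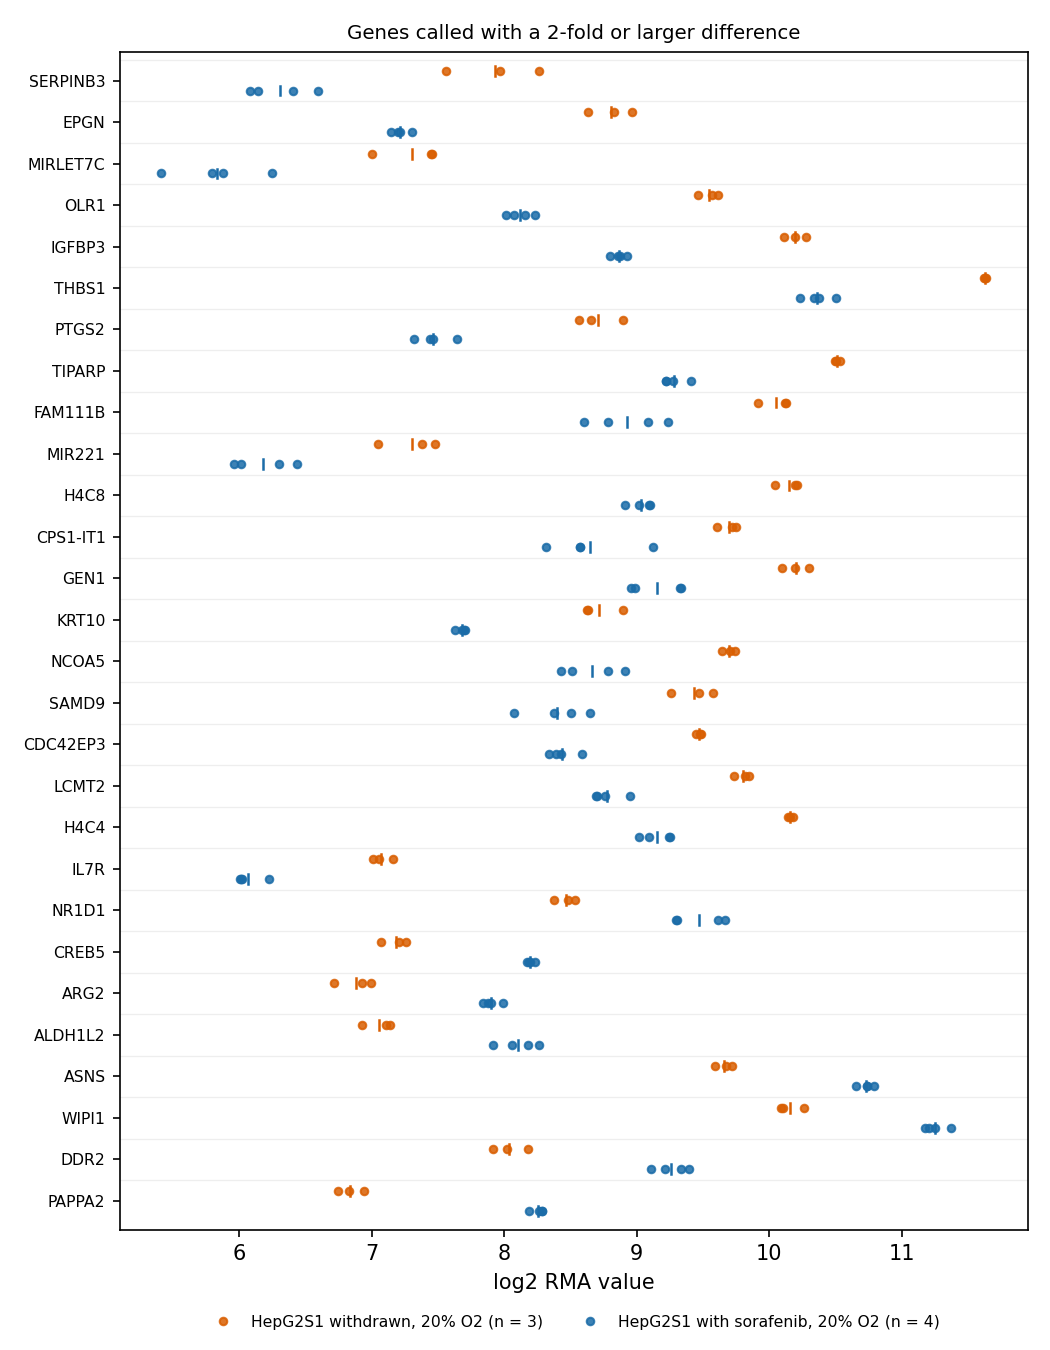
Log2 values per array (points) and group means (ticks) for the 28 genes called with a difference of 1 or more on the log2 scale, in withdrawn (n = 3, orange) and sorafenib (n = 4, blue) flasks. No gene shows overlap between the groups, from SERPINB3 (7.56 to 8.26 against 6.08 to 6.60) at the top to PAPPA2 (6.75 to 6.94 against 8.19 to 8.29) at the bottom.

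Several repressors and output genes of the circadian clock were lower while its core activators did not pass. Of 18 genes, 7 fell and 1 rose, with a median of -0.15. NR1D1, a heme-binding repressor of the clock, read 8.38, 8.48 and 8.54 without the drug and 9.30, 9.30, 9.61 and 9.66 with it, and fell by 1.01 ± 0.09 (limma, adjusted p = 7.65e-06). NR1D2, its relative, read 8.83, 8.97 and 9.12 against 9.69, 9.78, 9.79 and 9.83 and fell by 0.80 ± 0.08. USP2, PER2, DBP, TEF and CRY2 fell by 0.65, 0.59, 0.47, 0.35 and 0.28. CLOCK and BMAL1, the activators, differed by 0.04 and -0.06. The rise of RORA, an activator of the loop, was lost without withdrawn replicate 1 or 3 or sorafenib replicate 2, 3 or 4. The hour of harvest is not given in the labels, and its part in these values was not tested.

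The array also carries rows for microRNA genes, which measure the precursor or its host transcript and not the mature RNA. Of 173 such rows tested, 14 were higher and 4 lower after withdrawal, with a median of -0.02. Neither share exceeded the 10.1% higher and 7.90% lower over all genes tested. The 4 lower rows were MIR15B, MIR21, MIR301A and MIRLET7I. MIRLET7C read 7.00, 7.45 and 7.46 without the drug and 5.41, 5.80, 5.88 and 6.25 with it, and rose by 1.47 ± 0.21 (limma, adjusted p = 0.000193). MIR99A, which lies in the same host gene, rose by 0.89 ± 0.12, and the host transcript MIR99AHG by 0.90 ± 0.10. MIR221, also among the 28 genes past 2-fold, read 7.05, 7.38 and 7.48 against 5.97, 6.02, 6.30 and 6.44 and rose by 1.12 ± 0.12. MIR99A and MIR99AHG were singled out after their values were seen. The mature sequences of these genes from RefSeq (GRCh38.p14) are given 5′ to 3′ with the seed, bases 2 to 8, in capitals. The first lies on the plus strand at chr21:16539838-16539859, the next on the plus strand at chr21:16539101-16539122 and the last on the minus strand at chrX:45746180-45746202.
hsa-let-7c-5p: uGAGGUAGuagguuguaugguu
hsa-miR-99a-5p: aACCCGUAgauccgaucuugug
hsa-miR-221-3p: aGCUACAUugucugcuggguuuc
The 3 seeds differ, and the levels of the mature RNAs were not measured.

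Of 18 epithelial genes 4 rose and 2 fell, and of 21 mesenchymal genes 1 rose and 3 fell, the rise being lost without withdrawn replicate 1 or sorafenib replicate 2 or 4. PKP2, a plaque protein of desmosomes, rose by 0.49 ± 0.05 and the keratin KRT19 by 0.40 ± 0.08. CLDN7, a claudin of tight junctions, fell by 0.33 ± 0.08 and ACTA2, smooth muscle actin, by 0.35 ± 0.06.

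Secreted and inflammatory genes moved in both directions. Of 23 cytokines and chemokines, 5 rose and 3 fell. IL1A read 9.83, 9.84 and 9.93 without the drug and 9.08, 9.12, 9.35 and 9.36 with it, and rose by 0.64 ± 0.09 (limma, adjusted p = 0.000295). IL1B, of the same family, read 8.03, 8.07 and 8.11 against 8.66, 8.72, 8.78 and 8.89 and fell by 0.69 ± 0.09 (limma, adjusted p = 8.80e-05). IL6 rose by 0.48 ± 0.06 and IL32 fell by 0.50 ± 0.06. Of 20 proteases of invasion and their inhibitors, 1 rose and 4 fell. TIMP3 and TIMP1, inhibitors of matrix metalloproteinases, fell by 0.57 ± 0.06 and 0.36 ± 0.06, and MMP7, a metalloproteinase, rose by 0.46 ± 0.08.

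Of 18 genes of sterol synthesis and uptake 5 rose and none fell, 3 without withdrawn replicate 2. PDK4, which inhibits pyruvate dehydrogenase, read 11.51, 11.52 and 11.54 without the drug and 12.11, 12.14, 12.14 and 12.15 with it. It fell by 0.61 ± 0.08. PPARA, the receptor that drives fatty acid oxidation, fell by 0.56 ± 0.05, and SREBF1, which drives lipid synthesis, rose by 0.44 ± 0.06. MT1F read 10.92, 11.01 and 11.03 against 11.66, 11.70, 11.73 and 11.79 and fell by 0.73 ± 0.06, and the other 10 of 11 metallothioneins did not pass. Of 20 secreted hepatocyte proteins 3 rose, 1 without withdrawn replicate 1. RBP4, the retinol carrier, rose by 0.63 ± 0.09 to a withdrawn mean of 7.75, against 13.42 in HepG2.

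Markers of other cell types were also read. Of 12 fibroblast and stellate cell markers, DCN and LUM, small matrix proteoglycans, rose by 0.82 ± 0.07 and 0.73 ± 0.14, and their levels in HepG2 were 5.16 and 5.20. The summed intensity of this list was 6422 to 6627 in withdrawn and 4397 to 4854 in sorafenib flasks. COL1A1, COL1A2, COL3A1, PDGFRB and THY1 did not pass, with differences of -0.10 to -0.02. Of 12 endothelial and blood cell markers only CD68, a lysosomal glycoprotein, was called, with a fall of 0.55 ± 0.06, and PECAM1 and PTPRC, the defining markers of those cells, lay at means of 5.67 and 4.36 in withdrawn flasks, at or below the lower quartile. The summed intensity of that list was 3721 to 4204 in withdrawn and 5080 to 5501 in sorafenib flasks. The part of such cells in the results was not tested. None of the 16 hepatocyte transcription factors and enzymes was called.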

How the data were processed

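RNA of 13 flasks was hybridised to Affymetrix whole-transcript arrays, 1 array per flask. The values analysed are log2 values deposited by the authors, made with RMA (background correction, normalization between arrays and summary of probes per row) per the submitters' processing notes. The RMA version is not given in the sources used here. Groups came from the labelled exposures, and replicate numbers follow deposition order and pair nothing. The number of arrays limits the precision.

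Of 28926 rows, 19310 had 1 gene symbol, 1752 several and 7864 none. Symbols were brought up to date where the annotation allowed (19279 rows). Where a gene had more than 1 row (685 genes), the row with the highest mean over all arrays was used, which left 18377 genes. All 13 arrays entered a single limma fit (limma 3.58.1, R 4.3.3) with group means, eBayes and Benjamini-Hochberg adjustment over all genes tested, at a threshold of 0.05. Figures were drawn with matplotlib 3.10.9 in Python 3.11.15. Errors of differences are standard errors from the fit. Non-overlap means that every withdrawn array lay on 1 side of every sorafenib array.

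The comparison and the 43 gene lists were chosen with earlier results of these data known, and 4 more lists were added after values were seen. 65 listed genes without a row of their own are not analysed here. Genes named are those past 2-fold, up to 6 called members of each list with the largest change, and a few for their role. Further list members were named with their values seen, to show the range within a list. The fit was tested on simulated data with 50 changed genes of each size: it recovered 34% of differences of 0.3, 90% of 0.5 and 100% of 1 on the log2 scale, with 10 false calls among 172.

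The alternatives were trend and robust moderation, fits on fewer arrays, a filter at the 33rd percentile of level, scaling to the 75th percentile, a second quantile normalization, limma's array weights, averaging the rows of each gene, testing every row whether named or not, a threshold of 0.01, and leaving out single arrays.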

Additional observations from a re-analysis of the deposited data

Results flagged for a closer look

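For 15 of the 231 genes checked, a single sorafenib array stood apart from the other 3. The measure is the gap to the nearest array divided by the range of the 4. Chance flags about 1 in 20 such groups. Sorafenib replicate 2 stood apart for PYCR1 (0.838 of the range), PLOD2 (0.855), IL18 (0.976, at 10.62 against 10.87 in the others), ABCC3 (0.875, at 10.42 against 10.26 to 10.28) and HIF1A (0.830, at 12.53 against 12.75 to 12.80). Sorafenib replicate 1 stood apart for IL7R (0.929, at 6.23 against 6.01 to 6.02), SRXN1 (0.856, at 9.97 against 9.88 to 9.89) and MIR32 (0.837, at 7.36 against 6.34 to 6.51). Sorafenib replicate 3 did so for SMAD7 (0.954), BMP6 (0.850, at 9.05 against 9.23 to 9.26) and ODC1 (0.964, at 11.37 against 11.50 to 11.51). Sorafenib replicate 4 did so for DUSP4 (0.865), TIMP3 (0.843), LSS (0.835) and KRT5 (0.906). IL7R, PYCR1, PLOD2, DUSP4, TIMP3 and KRT5 kept their calls without each single array.

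Outside the genes tested, 10549 rows had no gene of their own. In a fit over all rows, 633 of them were called after withdrawal, 336 higher and 297 lower.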

How the results depend on the processing

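None of the 221 named genes that were called changed direction under any alternative that gave it a value. The filter at the 33rd percentile gave none for 13 of them, 5 of which were among the 28 genes past 2-fold. All 28 kept their call in each fit that tested them. Of the 221, 180 kept the call without each single array and 177 in every fit that tested them, the stricter threshold included. With array weights, 2861 genes were higher and 2370 lower after withdrawal, and 2453 were higher than at 2% O2. At an adjusted p of 0.01, 1123 were higher and 847 lower, and against 2% O2 788 were higher and 1261 lower. Over all rows, 32 were higher by 2-fold. Leaving out each array gave 1257 to 1919 genes higher, 995 to 1279 lower, 14 to 24 higher by 2-fold and 6 to 9 lower by 2-fold. Against 2% O2 it gave 987 to 1500 higher and 1451 to 2067 lower. With array weights AFP and KIT passed the test, at -0.19 and -0.17. With 75th percentile scaling the median over all genes was -0.05 instead of -0.02. The cause of these moves was not tested. No paired analysis was possible because the labels carry no replicate numbers shared between groups.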

Other observations

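Further gene groups were listed after some of their members had been seen to move, and their counts carry no test. Counts without the genes that prompted a list come from the same arrays and are no independent check. Ribosome biogenesis factors, which process ribosomal RNA and assemble the subunits, were higher after withdrawal. Of 32 measured, 26 rose and none fell, with a median of 0.35. Without the 3 genes that prompted the list, 23 of 29 rose, with a median of 0.31. RRS1, an assembly factor of the large subunit, read 10.64, 10.66 and 10.68 without the drug and 9.77, 9.79, 9.86 and 9.92 with it, and rose by 0.83 ± 0.06 (limma, adjusted p = 1.44e-06). The withdrawn values lay above every sorafenib value. UTP14A and NIP7 each rose by 0.61, and POLR1A and POLR1B, the large subunits of RNA polymerase I, by 0.40 ± 0.06 and 0.37 ± 0.07. NCL, nucleolin, rose by 0.31 ± 0.05.

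Genes of COPII vesicles and Golgi tethers, which carry proteins out of the endoplasmic reticulum, were lower. Of 28 measured, 17 fell and 1 rose, with a median of -0.24. Without the 2 genes that prompted the list, 15 of 26 fell and 1 rose. SEC24D, a cargo adaptor of the vesicle coat, read 10.30, 10.37 and 10.40 without the drug and 11.14, 11.15, 11.16 and 11.17 with it, and fell by 0.80 ± 0.06 (limma, adjusted p = 7.54e-07). KDELR3, which returns chaperones from the Golgi, fell by 0.72 ± 0.06, and the tether subunits COG6, COG5 and COG3 by 0.84 ± 0.10, 0.48 ± 0.05 and 0.42 ± 0.05.

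Of 55 replication-dependent histone genes, 21 rose and 1 fell. Without the 3 genes that prompted the list, 18 of 52 rose and 1 fell. H4C8 read 10.04, 10.20 and 10.21 without the drug and 8.91, 9.02, 9.09 and 9.10 with it, and rose by 1.12 ± 0.07, while H4C4 rose by 1.01 ± 0.14. These genes are near-identical in their coding sequence, and which copy a row measures is uncertain. Of 15 keratins 4 rose and 1 fell, KRT5, a keratin of basal epidermis, by 0.79 ± 0.06. TXNIP, which binds thioredoxin and slows glucose uptake, read 12.08, 12.12 and 12.14 without the drug and 11.09, 11.10, 11.20 and 11.30 with it, and rose by 0.94 ± 0.07 (limma, adjusted p = 7.54e-07). It was singled out after its values were seen.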
